A study of Homo sapiens with 19 samples.

Results

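Mitochondrial ribosomal protein genes were taken as all genes with the symbol MRPL or MRPS followed by digits and at most 1 letter A, B or C, with pseudogenes left out. The rule found 78 genes, 49 with an MRPL and 29 with an MRPS symbol, among the 58051 human genes of the count tables. It uses the names alone and no measured value. All 78 are annotated as protein coding and lie on 21 chromosomes. RNA came from K562, a human erythroleukaemia line that makes fetal and embryonic globins, and no group received a treatment. Whole cells, cytoplasm, nuclear wash and nucleus were each sequenced in 4 rRNA-depleted libraries, and the nuclear wash also in 3 libraries with the depletion step omitted. The labels do not say what the nuclear wash was made with or whether the replicates are separate cultures. The tests therefore measure variation among these libraries, some or all of which may be technical.

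The mitochondrial ribosome translates the few mRNAs made inside mitochondria, which encode core subunits of the respiratory chain. Its rRNAs come from mitochondrial DNA, but all of its proteins come from nuclear genes, are made on cytosolic ribosomes and are imported. MRPL symbols name proteins of the large subunit, where peptide bonds form, and MRPS symbols those of the small subunit, where the mRNA is decoded. The symbols are not exact: for example, MRPS18A and MRPS30 are known as parts of the large subunit and are kept here under their symbol. Other exceptions were not looked for.

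Promoter sequence was matched by symbol to RefSeq windows on GRCh38.p14, which run from 250 bases before to 50 bases after a start site, and 69 of the 78 members had one. Across 9 patterns searched on both strands, the share of members with a match in any window was set beside that of all 27305 genes in the table. AAGATGGC, a form of the YY1 site, was in 21 of the 69 members (30.4%) and in 3.52% of all genes. It was in 7 of 69 matched cytosolic ribosomal protein genes (10.1%). CCGGAAGT, an ETS factor site, was in 12 members (17.4%) against 4.95% of all genes, and its shorter form CCGGAAG, which overlaps it, in 30 (43.5%) against 12.2%. The cytosolic ribosomal protein genes were near the members for both, at 15.9% and 34.8%. The NRF1 site was searched in 3 overlapping forms. Its long form with 1 free base was in 9 members (13%) against 6.98%, its long exact form in 1 (1.45%) against 1.52%, and GCATGCGC in 6 (8.7%) against 3.68%. In the same order the cytosolic ribosomal protein genes had 11.6, 1.45 and 4.35%. GGGCGG, the GC box, was in 42 members (60.9%) against 48.3% of all genes and 56.5% of cytosolic ribosomal protein genes. TATAAA was in 3 members (4.35%) against 14% of all genes and 10.1% of cytosolic ribosomal protein genes. One form of the SRF site was in 0 members against 0.0439% of all genes. All of these searches were made after the members' fold changes were known. The 2 patterns printed here, and the genes they are printed for, were picked after these shares had been seen, so the shares describe the windows and carry no test.

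In each 30-base window the capitals mark the match, and the sequence is that of the gene's own strand. The first 4 genes are lower in the nucleus than in the cytoplasm in the results that follow, and the other 3 are higher there, to show that both kinds carry the YY1 letters. In the first 4 and in MRPL46 the match lies just downstream of the RefSeq start, and it holds an ATG.
MRPL51, chr12:6493223-6493252, minus strand: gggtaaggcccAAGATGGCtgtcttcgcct
MRPS18B, chr6:30617852-30617881, plus strand: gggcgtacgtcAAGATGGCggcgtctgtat
MRPL45, chr17:38297170-38297199, plus strand: tttgcgggaacAAGATGGCagcccccatac
MRPS18A, chr6:43687764-43687793, minus strand: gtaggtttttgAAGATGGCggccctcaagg
MRPL46, chr15:88467362-88467391, minus strand: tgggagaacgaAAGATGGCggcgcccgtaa
MRPL52, chr14:22829778-22829807, plus strand: tacgatgacccAAGATGGCggagccgtgat
MRPL32, chr7:42932143-42932172, plus strand: acccgcgctccGCCATCTTtacccgaagag

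The ETS letters are shown for 3 members, each with the reverse complement of CCGGAAGT in capitals. The match lies upstream of the start in MRPL51 and MRPL18 and runs across it in MRPL52.
MRPL51, chr12:6493364-6493393, minus strand: ggcgctccaaaACTTCCGGcaggcggaccg
MRPL18, chr6:159790429-159790458, plus strand: ggggacttgctACTTCCGGgtcggtggcgt
MRPL52, chr14:22829870-22829899, plus strand: aggccacgcctACTTCCGGctaccccggct
In 1 window per gene, the YY1 letters began at or after the start in 15 of 20 members, and the ETS letters began before it in 11 of 11. Of the members lower in the nucleus, 16 of the 57 with a window held the YY1 letters, as did 4 of the 6 that were higher there.

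Exon counts totalled 1373755 in the shallowest depleted library and 7955415 in the deepest, against 923464 and 1801293 without depletion. As a landmark of the nucleus, MALAT1, a nuclear noncoding RNA, was higher in the nucleus than in the cytoplasm by 4.24 on the log2 scale, and GAPDH, a glycolytic enzyme, was lower (-3.79; adjusted p = 1.4e-09 and 6.76e-15, edgeR's quasi-likelihood test with Benjamini-Hochberg adjustment). All 8 K562 markers passed the filter on low counts, with a summed level of 1324 to 5427 CPM (read count scaled by the TMM library size) per library. Of 12 markers of other cell types 3 passed. The list summed to 50.3 to 80.1 CPM in whole cell, cytoplasm and nucleus libraries and to 178.2 to 227.0 CPM in the wash, where MS4A1 and MPO were at 0. The part of those transcripts in the wash results was not tested.

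Per kilobase of exon, the members spanned a wide range of levels in whole cells, with a median of 12.4 CPM per kb. Exon length counts every base within an exon of any annotated transcript, so it can exceed the length of a single mRNA. MRPL40, which lies in the DiGeorge syndrome region of chromosome 22, was highest at 71.4 ± 8.9 CPM per kb (SD, n = 4). MRPL18 and MRPS35 followed at 69.7 ± 15.5 and 61.0 ± 5.11. MRPL40 and MRPL18 differed by less than their spread. At the low end were MRPL53 (0.347 ± 0.338), MRPL23 (0.488 ± 0.18) and MRPS24 (0.617 ± 0.101), which overlapped within their SDs. MRPL12, MRPL23 and MRPL53 had 0 to 15 exon counts in every library and did not pass the filter, which left 75 members, 46 MRPL and 29 MRPS. MRPS24 shares 606 exon bases with the read-through gene URGCP-MRPS24 on the same strand, and how reads shared by both genes were counted is not given in the sources used here.

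Together the 78 members took 0.464% ± 0.0168 (SD, n = 4) of exon counts outside mitochondrial and rRNA genes in whole cells. Their share was 0.613% ± 0.0133 in the cytoplasm, 0.421% ± 0.0303 in the wash and 0.291% ± 0.0063 in the nucleus. The undepleted wash held 0.462% ± 0.0289 (n = 3). Every cytoplasm library (0.5996 to 0.6269%) lay above every whole cell library (0.4438 to 0.4828%), and every nucleus library (0.2845 to 0.2982%) lay below all others. Wash libraries (0.3906 to 0.4524%) overlapped with whole cells. MRPL genes held more of it than MRPS genes in the cytoplasm (0.340 against 0.273%) and less in the nucleus (0.128 against 0.163%). In the nucleus libraries MRPS25 alone held 613, 800, 882 and 495 of the members' 4801, 6276, 6986 and 3642 exon counts. The order in the nucleus therefore leans on this gene. By mean CPM, the cytoplasm was the highest of the 4 depleted groups for 66 members, the nucleus for 9 and the wash for 3. This takes in all 78 members, some with few counts, and no such count over all genes is given here to set beside it. In bulk libraries such as these, fewer cells of a type and less RNA per cell cannot be told apart, and CPM values are relative to the other RNA of the same fraction.

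The nucleus was compared with the cytoplasm for the relative level of each member's exon reads, which can come from spliced and unspliced RNA. Of 75 members tested, 64 were lower and 6 higher in the nucleus, against 37.5% lower and 39.3% higher among all 15940 genes. The members' median log2 fold change was -1.76, against 0.03 for all tested genes and -0.28 for protein-coding genes. MRPL genes had 41 lower and 3 higher with a median of -1.78, and MRPS genes 23 lower and 3 higher with a median of -1.62. Calls, here and in the comparisons that follow, are adjusted p-values below 0.05 in edgeR's quasi-likelihood test with Benjamini-Hochberg adjustment over all genes. Column names carry a prefix of unstated meaning, 1 for replicates 1 and 2 and 2 for replicates 3 and 4. Within prefix 1 the counts were 60 lower and 6 higher, and within prefix 2 they were 66 and 5.

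**Figure D1:**
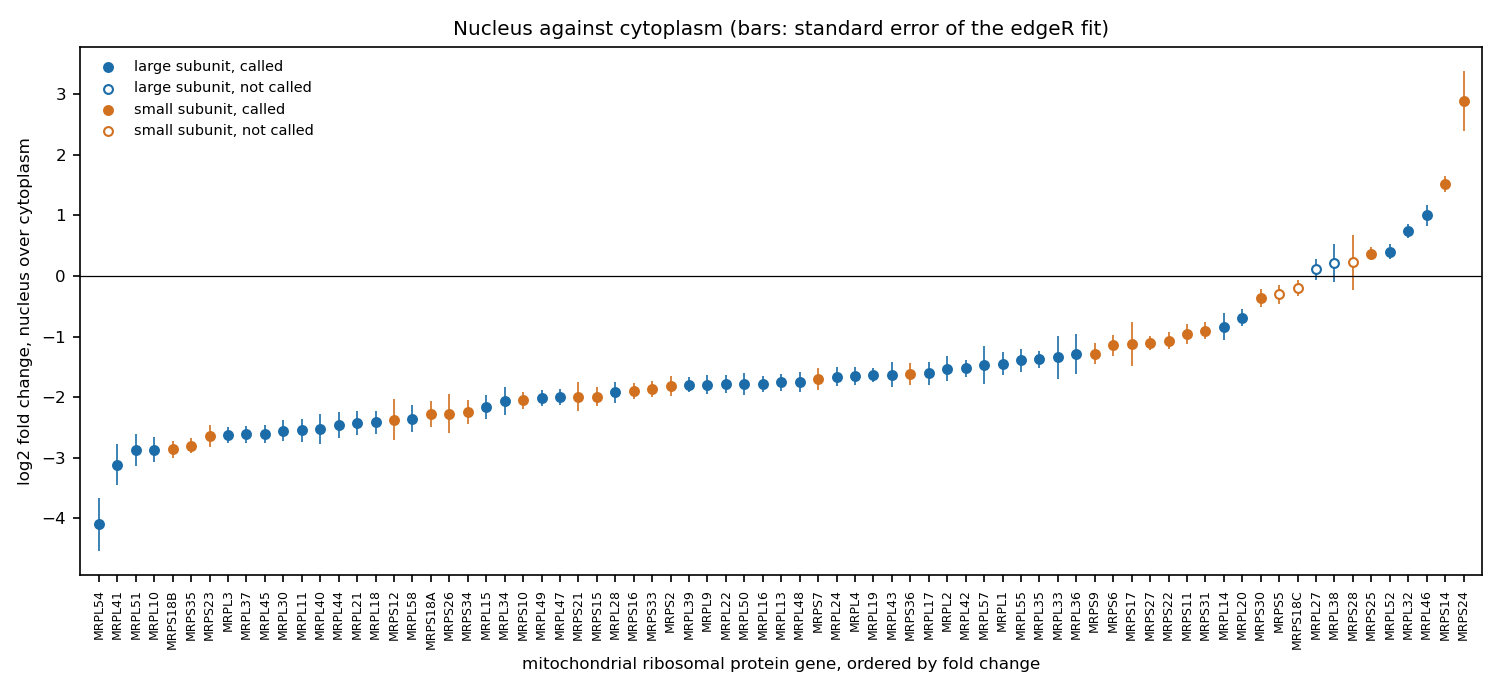
Log2 fold change of nucleus over cytoplasm for the 75 tested members, ordered by value, with MRPL genes in blue and MRPS genes in orange. Points are the edgeR estimates, bars their standard errors, and open points did not pass the test. The range runs from -4.10 for MRPL54 to 2.89 for MRPS24. Of the 6 members called higher, MRPL46, MRPL32, MRPL52 and MRPS25 turn negative with gene-body counts, and MRPL52 and MRPS25 also with spike-in library sizes. Gene-body counts also lower the landmarks MALAT1 (2.74) and GAPDH (-5.26). MRPS24 has no gene-body result.

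Among MRPL genes MRPL54 (19:3762664-3768575 on GRCh38), a large subunit protein, was lowest. Its 4 cytoplasm libraries held 12.3, 11.5, 13.1 and 10.2 CPM and its nucleus libraries 1.35, 0.687, 0 and 1.04, from 3, 2, 0 and 2 counts. The groups did not overlap, and the log2 fold change was -4.10 ± 0.43 (SE; adjusted p = 2.63e-08). MRPL41, also of the large subunit, held 23.8, 26.5, 19.6 and 14.5 CPM in the cytoplasm and 2.69, 1.38, 2.99 and 2.59 in the nucleus. It fell by 3.11 on the log2 scale (SE 0.34; adjusted p = 5.02e-08, edgeR). MRPL51 held 29.6, 27.4, 29.1 and 27.0 CPM against 2.24, 6.19, 2.45 and 4.67, a log2 fold change of -2.87 ± 0.27 (adjusted p = 3.61e-09, edgeR).

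MRPS18B and MRPS35, small subunit proteins, had higher counts and so tighter values. MRPS35 held 207, 203, 229 and 244 CPM in the cytoplasm and 32.7, 31.6, 32.1 and 30.1 in the nucleus, whose libraries lay within a narrow band. Its log2 fold change was -2.80 ± 0.12 (adjusted p = 8.63e-14, edgeR) and -1.85 with gene-body counts. MRPS18B held 171, 163, 157 and 150.1 CPM against 22.0, 19.9, 21.5 and 25.4, a change of -2.86 ± 0.15 (adjusted p = 5.01e-13, edgeR). MRPS23 held 97.8, 84.7, 76.3 and 87.6 CPM against 15.2, 12.7, 17.4 and 8.82, a change of -2.64 ± 0.18 (adjusted p = 2.26e-11, edgeR). For all 3 the lowest cytoplasm library was above the highest nucleus library.

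MRPS14, a small subunit protein of the head domain, went the other way. Its cytoplasm libraries held 19.4, 19.1, 17.7 and 24.5 CPM and its nucleus libraries 57.4, 60.8, 56.3 and 57.6, with no overlap. The log2 fold change was 1.52 ± 0.13 (adjusted p = 1.44e-09, edgeR). With gene-body counts it was 0.45 and still called, and with spike-in library sizes it was 0.90. MRPS14 shares 351 exon bases with CACYBP on the opposite strand, and the strand setting of the counting is not given in the sources used here. MRPS24 was also higher (2.89 ± 0.49; adjusted p = 1.88e-05, edgeR), from 1 to 7 counts per cytoplasm library and 5 to 16 per nucleus library. It lies under the 5 CPM minimum for naming and was picked after its value was seen.

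The other 4 members called higher depended on the count table, and with gene-body counts 3 members in all were called higher. Of those 3, only MRPS14 was also called higher with exon counts, and MRPS24 had no gene-body result. Gene-body counts lowered the landmarks too: MALAT1 from 4.24 to 2.74, NEAT1 from 2.88 to 1.39 and GAPDH from -3.79 to -5.26. ACTB went from -3.19 to -4.66 and HSPA5 from 0.48 to -0.96, and the all-gene median from 0.03 to -0.22. Some members, such as MRPS35 and MRPS23, moved up instead. The part of this shift in the sign changes that follow was not tested. Without a composition factor 10 members were called higher, with a median of -1.15 for members and 0.64 for all genes. MRPL32, which a protease of the inner membrane must cut before the ribosome assembles, held 31.5, 39.7, 39.6 and 43.1 CPM in the cytoplasm and 68.1, 69.8, 61.7 and 58.6 in the nucleus (0.75 ± 0.12; adjusted p = 8.93e-06, edgeR). With gene-body counts its change was -0.54. MRPL46 held 8.53, 8.16, 6.77 and 7.18 CPM against 15.7, 14.4, 15.2 and 16.1 (1.00 ± 0.17; adjusted p = 1.78e-05, edgeR), and -3.15 with gene-body counts. MRPL46 had more exon than gene-body counts, and it shares 724 exon bases with AC013489.1 on the same strand. MRPL52 overlapped between the groups, at 34.5, 38.5, 39.1 and 35.1 CPM in the cytoplasm and 53.4, 56.7, 48.7 and 35.3 in the nucleus, and was not called within prefix 2 (0.22; adjusted p = 0.254, edgeR). MRPS25 held 217, 205, 182 and 207 CPM against 275, 275, 239.9 and 257. MRPL52 (0.40 ± 0.13) and MRPS25 (0.37 ± 0.11) gave adjusted p = 0.00795 and 0.00441 in edgeR's test, and -0.64 and -0.34 with gene-body counts. Without the filter on low counts neither was called (adjusted p = 0.217 and 0.243, edgeR). MRPS25 shares 1197 exon bases with NR2C2 on the opposite strand.

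**Figure D2:**
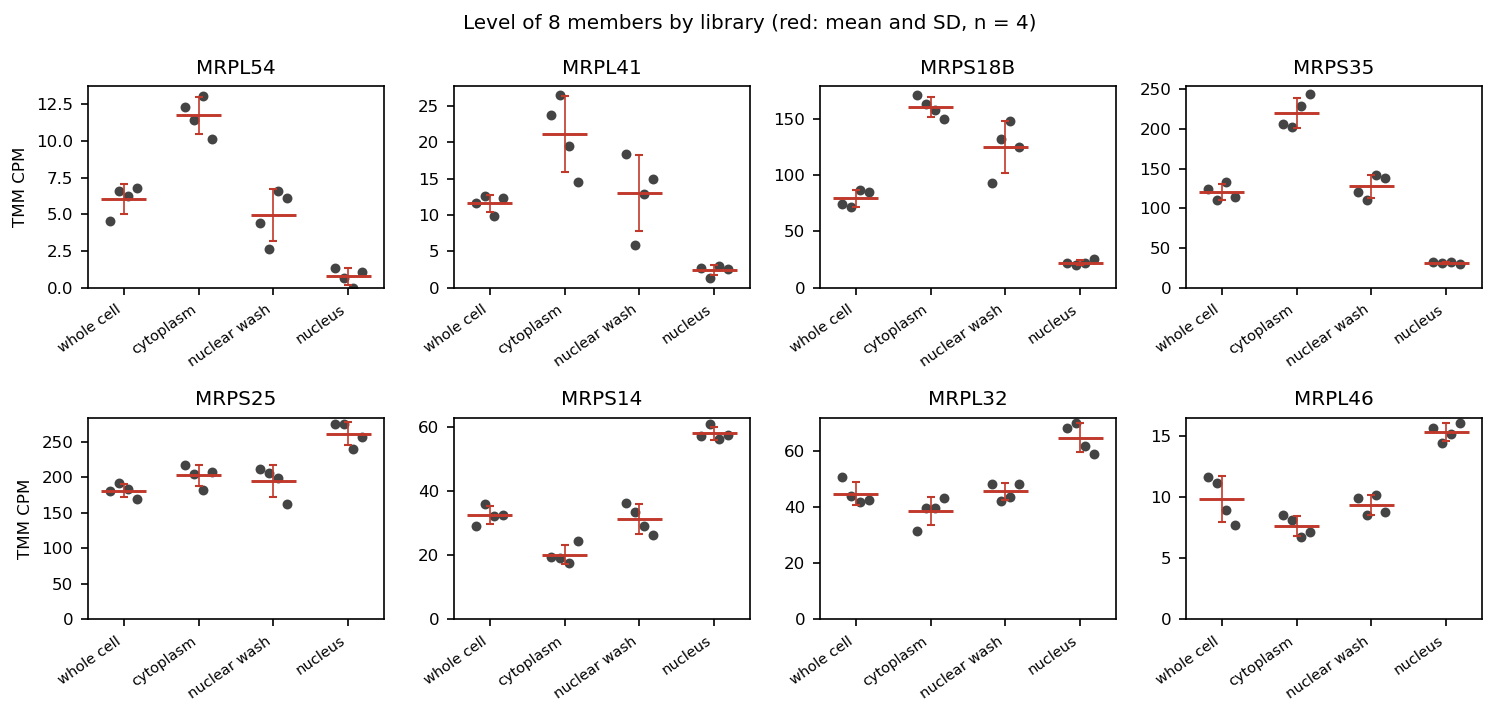
Level in TMM-scaled CPM of 8 members in each depleted library, with points for libraries and red bars for the mean and SD (n = 4). MRPL54, MRPL41, MRPS18B and MRPS35 are lowest in the nucleus, while MRPS14, MRPL32, MRPL46 and MRPS25 are highest there. MRPL32, MRPL46 and MRPS25 have the opposite sign with gene-body counts, and MRPS25 also with spike-in library sizes. The landmarks MALAT1 and GAPDH are also lower in nucleus over cytoplasm with gene-body counts.

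Exon overlap with other genes was common, and it was looked at after the calls had been seen. Of the 78 members 41 share exon bases with another gene, 16 on the same and 29 on the opposite strand. Of the 37 members with no shared bases, all tested, 35 were lower and 1 higher in the nucleus than in the cytoplasm, with a median of -1.87. Of the 38 tested members with shared bases, 29 were lower and 5 higher, with a median of -1.58.

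Members also differed by length. Their median exon length, taken over all annotated transcripts of a gene, was 2539 bases (959 to 16393), against 5135 for tested protein-coding genes. Across the 75 members, Spearman's rho of exon length with the nucleus over cytoplasm fold change was 0.418, and across 11310 protein-coding genes it was 0.36. These are across genes of the same libraries, which are not independent. In a split into 3 equal parts by length made after the data were seen, the shortest 25 members had 24 lower, 0 higher and a median of -2.06. The middle 25 had 22 lower and a median of -1.90, and the longest 25 had 18 lower, 4 higher and a median of -1.38. The number of exon blocks had a rho of 0.00905 across members and 0.311 across protein-coding genes.

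Other parts of the mitochondrial translation machinery were read from the same fit. Of 5 mitoribosomal proteins without an MRP symbol, 4 were lower and 1 higher in the nucleus than in the cytoplasm, with a median of -1.67. AURKAIP1, a small subunit protein, was lowest (-3.24 ± 0.24), and PTCD3, a small subunit RNA-binding protein, was higher (0.92; 0.14 and not called with gene-body counts). Of 15 translation factors 5 were lower and 3 higher, with a median of -0.17. TUFM, the elongation factor that brings aminoacyl-tRNA, was lower (-2.08), and GFM1, the translocase, was higher (1.44). With gene-body counts they were -3.49 and 0.46. Of 25 assembly and rRNA modification factors 11 were lower and 8 higher, with a median of -0.24, led by MPV17L2 (-2.38) and MTG1 (2.10). Of 19 genes for RNA polymerase and RNA stability 10 were lower and 4 higher, with a median of -0.31, from HSD17B10 (-2.86) to FASTK (2.30; 0.82 with gene-body counts). Of 82 cytosolic ribosomal protein genes tested 79 were lower and 3 higher, with a median of -2.79. Of 77 nuclear genes of oxidative phosphorylation 61 were lower and 7 higher, with a median of -1.75. No difference between these lists was tested.

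In the nuclear wash, most members were below their cytoplasm level and above their nucleus level. Against the cytoplasm, 54 members were lower in the wash and 1 was higher, with 21.4% lower and 22.8% higher among all genes. The median was -0.68, against 0.05 for all genes. Within prefix 1 the counts were 52 and 1, and within prefix 2 they were 46 and 0. This comparison and that of wash with nucleus share the wash libraries.

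MRPL54 fell most (-1.25 ± 0.27; adjusted p = 0.000786, edgeR), with 4.42, 2.65, 6.6 and 6.14 CPM in the wash. MRPL14, a core protein of the subunit interface, held 20.03, 21.5, 16.03 and 18.9 CPM in the cytoplasm and 9.57, 5.92, 10.2 and 8.18 in the wash (-1.19 ± 0.21; adjusted p = 9.12e-05, edgeR). Its groups did not overlap, but the change was -0.11 and not called with gene-body counts (adjusted p = 0.62, edgeR). MRPL45 held 96.0, 84.8, 104 and 122 CPM against 45.6, 47.8, 56.0 and 53.0 (-1.001 ± 0.13; adjusted p = 2.99e-06, edgeR). Among MRPS genes, MRPS2 (-0.996 ± 0.14), MRPS34 (-0.96 ± 0.18) and MRPS12 (-0.96 ± 0.26), the last a protein of the decoding centre, fell most. MRPS14 was the 1 member that was higher in the wash, at 36.4, 33.5, 29.1 and 26.2 CPM (0.63 ± 0.13; adjusted p = 0.000675, edgeR). Within prefix 2 its change was 0.39 (adjusted p = 0.0747, edgeR), with gene-body counts it was 0.27, and with spike-in library sizes it was -2.51.

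Against the nucleus, 59 members were higher in the wash and 7 lower, with 36.7% higher and 35.4% lower among all genes. The median was 1.12, against 0.06 for all genes. Without a composition factor both fell, to 0.44 and -0.61. Within prefix 1 the counts were 54 and 7, and within prefix 2 they were 61 and 5. With plain library sizes and no composition factor, 38 members were higher and 12 lower, and with spike-in library sizes 0 were higher and 72 lower. Spike-in scaling moved the median of all genes in the 6 comparisons of depleted groups to -3.10 (wash over cytoplasm), -2.47 (wash over nucleus), -1.24 (cytoplasm over whole cell), -0.60 (nucleus over cytoplasm), -1.83 (nucleus over whole cell) and -4.51 (wash over whole cell). Relative to that shift the members' median was still above that of all genes in wash over nucleus (-1.44). The amount of spike-in per sample is not stated, so these values cannot be read as amounts of RNA.

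MRPS18B rose most among MRPS genes, from 22.2 ± 2.32 CPM in the nucleus to 125 ± 23.1 in the wash (log2 2.501 ± 0.15; adjusted p = 1.41e-11, edgeR). MRPS35 rose by 2.01 (0.91 with gene-body counts) and MRPS23 by 1.79. Without a composition factor MRPS35 was 1.33, MRPS23 1.11, MRPL10 1.30 and MRPL40 1.27. Of MRPL genes past the 5 CPM minimum, MRPL41 (2.37 ± 0.36), MRPL10 (1.99 ± 0.22), a protein of the stalk base, and MRPL40 (1.97 ± 0.24) rose most. MRPL40 was uneven in the wash, at 89.8 and 96.4 CPM in replicates 1 and 2 and 197 and 221 in replicates 3 and 4. All 6 of these were negative with spike-in library sizes. The 7 lower members were the 6 that were higher in the nucleus than in the cytoplasm, and MRPS18C. With gene-body counts MRPL46, MRPL52, MRPL32, MRPS18C and MRPS25 of these 7 turned positive, and MRPS14 was no longer called (-0.17; adjusted p = 0.137, edgeR). MRPS24 had no gene-body result, so the 3 members called lower with gene-body counts were others. Within prefix 2 MRPL52 (-0.34; adjusted p = 0.0831) and MRPS24 (-1.43; adjusted p = 0.0642, edgeR) were not called. Without the filter on low counts MRPL46, MRPL52, MRPL32 and MRPS25 were not called (adjusted p = 0.0804, 0.0621, 0.166 and 0.314, edgeR).

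**Figure D3:**
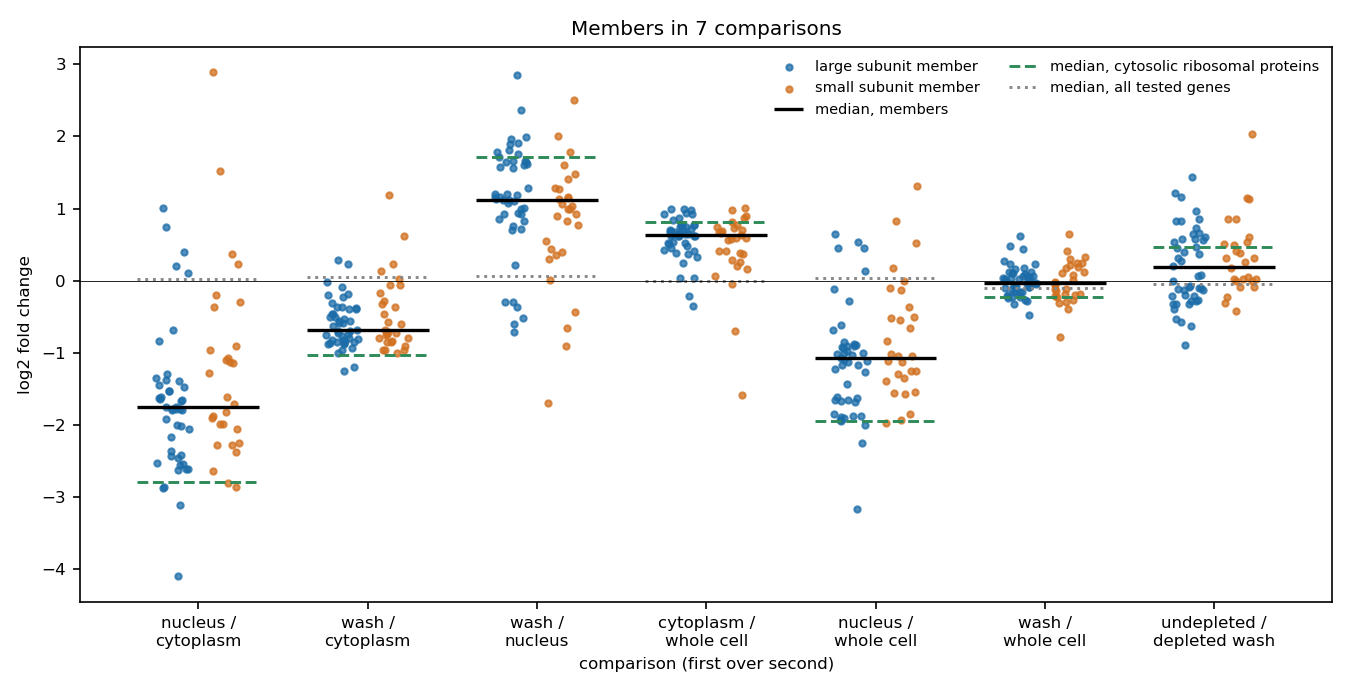
Log2 fold changes of the members in 7 comparisons, each named as first group over second, with MRPL genes in blue and MRPS genes in orange. Black bars mark the members' median, green dashes that of cytosolic ribosomal protein genes and grey dotted lines that of all tested genes. The members' median is -1.76 for nucleus over cytoplasm and 1.12 for wash over nucleus, on TMM scaling. With spike-in library sizes the members' medians for wash over nucleus and cytoplasm over whole cell turn negative (-1.44 and -0.60). Those of all genes are then -2.47 and -1.24.

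A joint test asked which members were beyond both the cytoplasm and the nucleus in the wash, taking the larger p of both comparisons. In edgeR's fit 0 members were higher and 1 was lower, with 5.6% higher and 1.17% lower among all genes. At an unadjusted p under 0.05, 0 were higher as well. The lower member was MRPS18C (adjusted p = 0.00271).

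MRPS18A, MRPS18B and MRPS18C are 3 human relatives of the bacterial protein S18, and their pattern differed in exon counts. MRPS18A held 55.0 ± 10.3 CPM in the cytoplasm, 34.7 ± 9.35 in the wash, 29.8 ± 4.41 in whole cells and 11.04 ± 2.21 in the nucleus (SD, n = 4). MRPS18B held 160.5 ± 9.03, 125 ± 23.1, 79.3 ± 7.46 and 22.2 ± 2.32 in the same order. Both were lower in the nucleus than in the cytoplasm, with log2 fold changes of -2.28 ± 0.22 and -2.86 ± 0.15. With gene-body counts MRPS18A was -1.19 and MRPS18B -3.34.

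In exon counts MRPS18C did not pass the test between nucleus and cytoplasm, while in gene-body counts it was called lower in the nucleus (-1.69; adjusted p = 6.12e-10, edgeR). Its libraries held 67.2, 70.0, 90.5 and 80.6 CPM in the cytoplasm, 81.1, 58.8, 67.7 and 61.2 in the nucleus and 64.4, 72.6, 83.5 and 72.3 in whole cells, and these groups overlapped. In the wash it held 38.3, 48.1, 43.2 and 40.9 CPM, below every library of the other depleted groups. The log2 fold change of nucleus over cytoplasm was -0.20 ± 0.13 (adjusted p = 0.174, edgeR). Without a composition factor it was 0.41 (adjusted p = 0.0101, edgeR), where the median of all genes was 0.64. Within prefix 2 it was -0.39 (adjusted p = 0.0156, edgeR), within prefix 1 0.011, and with spike-in library sizes -0.82. The wash was lower than the cytoplasm (-0.85 ± 0.13), the nucleus (-0.65 ± 0.14) and whole cells (-0.78 ± 0.13; adjusted p = 0.000136, edgeR). With gene-body counts the change from nucleus to wash was 0.59, which ended the joint call, and that from whole cells to wash was -0.15 and no longer called (adjusted p = 0.349, edgeR). Gene-body counts also lowered nucleus over cytoplasm for MALAT1 (4.24 to 2.74), NEAT1 (2.88 to 1.39) and GAPDH (-3.79 to -5.26), while MRPS18A rose. The intronic share of MRPS18C was nearly the same in cytoplasm and nucleus. The part of scaling in its gene-body calls was not tested. MRPS18C (4:83455932-83469735 on GRCh38, 4866 exon bases) shares 1956 exon bases with ABRAXAS1 on the opposite strand, and the part of ABRAXAS1 reads was not tested. Per kilobase in whole cells MRPS18B was highest at 42.0 ± 3.95 CPM per kb, then MRPS18A at 23.2 ± 3.43 and MRPS18C at 15.04 ± 1.61.

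**Figure D4:**
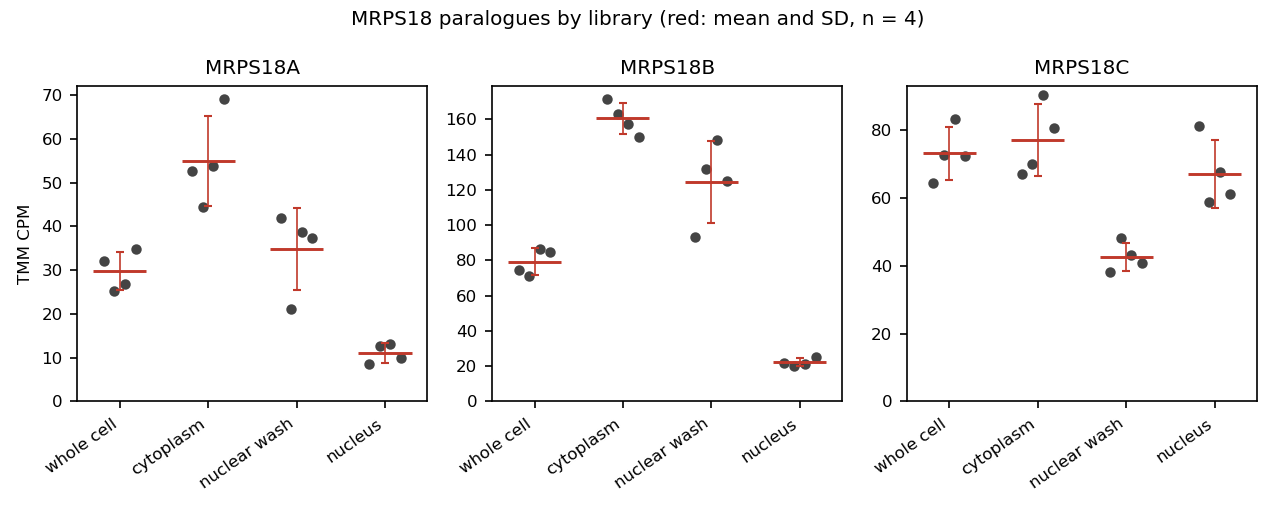
TMM-scaled CPM of MRPS18A, MRPS18B and MRPS18C in each depleted library, with red bars for the mean and SD (n = 4). MRPS18A and MRPS18B are lowest in the nucleus at 11.04 and 22.2 CPM, and MRPS18C is lowest in the wash at 42.6 CPM. With gene-body counts MRPS18C is lower in the nucleus than in the cytoplasm and higher in the wash than in the nucleus. Those counts also lower nucleus over cytoplasm for the landmarks MALAT1 and GAPDH.

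Compared with whole cells, the cytoplasm was higher for 58 members and lower for 2, with 22.3% higher and 27.6% lower among all genes. The median was 0.64, against 0.00 for all genes. It was 1.14 with gene-body counts (0.25 for all genes) and 0.39 without a composition factor (-0.25 for all genes). MRPS18B rose by 1.01 ± 0.13 and MRPL17, a large subunit protein, by 1.00 ± 0.16, while MRPS14 fell by 0.69 (SE 0.13). With gene-body counts MRPS18B was 1.72 and MRPL17 1.84, MRPS14 was -0.025 and not called (adjusted p = 0.834, edgeR), and 0 members were called lower. Within prefix 1 the counts were 44 higher and 1 lower, and within prefix 2 they were 57 and 2. With spike-in library sizes 0 were higher and 64 lower. The nucleus was lower than whole cells for 58 members and higher for 6, with 29% lower and 25.9% higher among all genes and a members' median of -1.07. Within prefix 1 the counts were 53 and 5, and within prefix 2 they were 55 and 4. All 6 higher members fell below 0 with spike-in library sizes, and with gene-body counts 1 member was called higher. MRPS14 was higher by 0.83 ± 0.13 (0.42 with gene-body counts). MRPL46 was higher by 0.65 ± 0.17, but it was not called within prefix 1 (0.39; adjusted p = 0.183, edgeR) or without the filter on low counts (adjusted p = 0.111, edgeR), and was -2.57 with gene-body counts. MRPL41 fell by 2.24 (SE 0.37) and MRPS23 by 1.97 (SE 0.18; -0.99 with gene-body counts).

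Few members passed the test between wash and whole cells. Of 75, 4 were higher and 1 lower in the wash, against 14.6% and 19.7% of all genes, and the median was -0.03. MRPS18B (0.65 ± 0.13), MRPL24 (0.63 ± 0.14), MRPL49 (0.48) and MRPS31 (0.41) were the higher ones, the last 2 named because the count is small. Without a composition factor MRPS18B (0.35; adjusted p = 0.0545) and MRPL24 (0.32; adjusted p = 0.0598, edgeR) were not called, and with gene-body counts both were 1.05. Counts moved with the setting: gene-body counts gave 32 higher and 1 lower, no composition factor 0 and 29, and spike-in library sizes 0 and 75. Without a composition factor the median was -0.34 for members and -0.41 for all genes. Within prefix 1 there were 2 higher and 5 lower, and within prefix 2 there were 7 and 2.

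Few members passed the test between undepleted and depleted wash, whose CPM values here are scaled within the 7 wash libraries. Of 72 tested in the wash libraries alone, 7 were higher and 0 lower without depletion, against 7.75% and 3.35% of 11627 genes, with a median of 0.19. At an unadjusted p under 0.05, 22 were higher and 5 lower, and DESeq2 gave 11 and 1. With a replicate block 21 were higher and 5 lower. No composition factor gave 3 higher and 18 lower, with a median of -0.32 for members and -0.56 for all genes. MRPS34, a small subunit protein, rose most, from 37.8, 23.9, 30.5 and 28.4 CPM in the 4 depleted libraries to 113, 119 and 134 in the 3 undepleted ones (log2 2.03 ± 0.18; adjusted p = 5.27e-05, edgeR). MRPL28 rose from 15.5, 12.1, 16.7 and 16.1 CPM to 38.6, 41.4 and 42.5 (1.44 ± 0.19; adjusted p = 0.000736, edgeR). The other 5 were MRPL14 (1.22), MRPS2 (1.13), MRPL32 (0.97), MRPL15 (0.85) and MRPL20 (0.66). Leaving out wash replicate 2 or undepleted replicate 3 gave 4 called higher. The undepleted libraries held 2474 to 4249 counts over the members. In the same fit, 38 of 82 cytosolic ribosomal protein genes were higher without depletion and 2 lower. For 74 nuclear genes of oxidative phosphorylation the counts were 23 and 4.

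Intronic reads, which come from unspliced or partly spliced RNA or from other genes within introns, were measured as the share of gene-body counts outside exons, in 61 members with at least 10 gene-body counts in every depleted library. Their median share was 4.48% in the cytoplasm, 18.1% in the wash, 25.5% in whole cells and 60.6% in the nucleus. For 9469 tested protein-coding genes the medians were 11.3, 26.3, 43.8 and 68.4%. The nucleus held the highest mean share in 58 of the 61 members, and the cytoplasm the lowest in 58. The medians of protein-coding genes had the same order, and no such count over them is given here. MRPL3, a core large subunit protein picked after its values were seen, held 11.4, 13.0, 7.28 and 7.86% in the cytoplasm and 90.1, 90.2, 88.7 and 87.3% in the nucleus. In whole cells the highest shares were in MRPL14 (75.5% ± 4.65) and MRPS27, a pentatricopeptide repeat protein (67.1% ± 5.31), and the lowest in MRPL17 and MRPS34 at 0%. Exons cover 2276 of the 2620 bases of MRPL17 and 1097 of the 1266 bases of MRPS34, which leaves little intron to be read. MRPS18C had a nearly flat share, 50.9% ± 3.04 in the cytoplasm, 54.9% ± 4.47 in the wash, 49.2% ± 4.13 in whole cells and 51.2% ± 3.15 in the nucleus. MRPS18B by comparison held 1.27% ± 0.278 in the cytoplasm and 50.5% ± 7.86 in the nucleus.

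**Figure D5:**
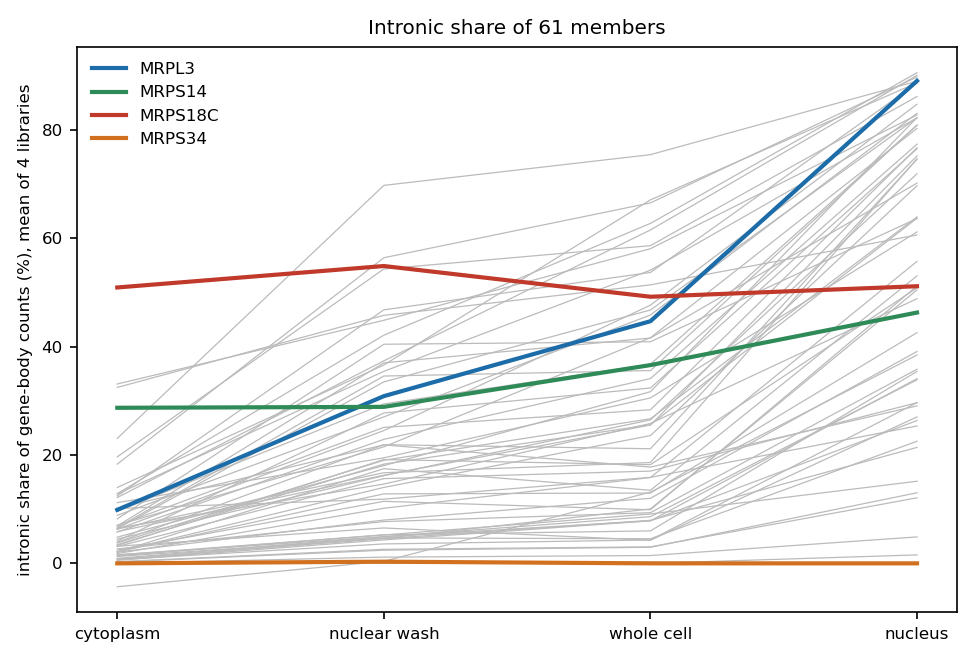
Intronic share of gene-body counts in percent, mean of 4 libraries, for 61 members across the depleted groups, with 1 line per gene. MRPL3 climbs from 9.88% in the cytoplasm to 89.1% in the nucleus, MRPS14 from 28.7 to 46.3%, and MRPS18C stays near 50.9%. MRPS34, which has little intron, stays near 0%. One member falls below 0, where exon counts exceeded gene-body counts.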

How the data were processed

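The authors deposited 2 tables of raw counts per gene, over exons and over gene bodies, for 19 libraries in 5 groups. Per the submitters' processing notes, cutadapt 2.5, STAR 2.7.0a, featureCounts 1.6.2 and hg38 were used. Their settings, the annotation release, the strand setting and the handling of shared reads were not given in the sources at hand. Per the labels' protocols, Trizol LS, yeast spike-ins and a stranded SMARTer kit were used. Positions and exon lengths came from GENCODE 29 on GRCh38 (57447 of 58051 identifiers matched). No molecular identifiers are named in the labels.

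Exon counts were tested with edgeR 4.0.16 in R 4.3.3 (filterByExpr, TMM, quasi-likelihood F test), with the 16 depleted libraries in 1 fit and the 7 wash libraries in another. A prior check on simulated data changed few genes, up and down alike, so it does not cover the wide shifts between these fractions. Standard errors are the absolute log2 fold change over the square root of F. The 11 spike-in transcripts entered neither the library sizes nor the tests. Same-numbered libraries deviated together (correlations of 0.104 to 0.379 in all 24 pairs, median 0.196, against -0.165 for different numbers). Pairs of different numbers with the same prefix reached 0.326 (cytoplasm replicate 3 with wash replicate 4), so these values do not settle a pairing by number. The main fits had no replicate block. As an alternative, a block was set by replicate number in the depleted libraries and by the shared column prefix in the wash libraries. Named members were the 3 highest and 3 lowest called per subunit in the comparisons among cytoplasm, wash and nucleus, and the 1 highest and lowest in the others, at a mean of 5 CPM or more. Named too were those called in the joint test, the MRPS18 genes, and the extremes of level and intronic share. Members, lists, tests and rules were chosen with earlier results of these data known. Alternatives were DESeq2 1.42.0, other scalings and filters, gene-body counts, the block and leaving out libraries.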

Additional observations from a re-analysis of the deposited data

Results flagged for a closer look

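The CPM of the members described by name, in each group of 4 depleted libraries, was checked for a library far from the other 3, by Dixon's 95% critical value for 4 samples. Of 116 groups checked 4 stood out, where chance gives about 1 in 20. MRPS12 was high in cytoplasm replicate 2 at 17.3 CPM, against 13.1 to 13.7 in the others. MRPL10 was high in cytoplasm replicate 3 at 71.0 CPM, against 54.5 to 56.8. MRPL17 was high in cytoplasm replicate 4 at 26.7 CPM, against 20.9 to 21.8. MRPL40 was low in whole cell replicate 3 at 114.3 CPM, against 147 to 152.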

How the results depend on the processing

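Of the log2 fold changes recomputed under alternatives, 1695 kept their direction and call, 44 kept the direction but lost the call, 10 gained a call and 57 reversed. Alternatives for the MRPS18 genes in all comparisons, and for members called in the rarer direction, were added after the data were seen. The cause of a change was not tested. Gene-body counts reversed nucleus over cytoplasm for MRPL46 (-3.15), MRPL32 (-0.54), MRPL52 (-0.64), MRPS25 (-0.34) and HSPA5 (-0.96). In that comparison they also lowered MALAT1 (2.74), NEAT1 (1.39), GAPDH (-5.26) and ACTB (-4.66). They reversed wash over nucleus for MRPL46 (2.00), MRPL52 (0.28), MRPL32 (0.47), MRPS18C (0.59) and MRPS25 (0.24), and nucleus over whole cell for MRPL46 (-2.57) and MRPL32 (-0.019). Spike-in library sizes reversed nucleus over cytoplasm for MRPL52 (-0.24), MRPS25 (-0.27) and HSPA5 (-0.12), and wash over cytoplasm for MRPS14 (-2.51). In wash over nucleus they gave a members' median of -1.44, with MRPL41 -0.20, MRPL10 -0.60, MRPL40 -0.67, MRPS18B -0.051, MRPS35 -0.55, MRPS23 -0.77 and MRPS18A -0.96. In cytoplasm over whole cell they gave a median of -0.60, with MRPL17 -0.25, MRPS18B -0.23, MRPS18A -0.37 and MRPS18C -1.18. In nucleus over whole cell they gave MRPL46 -1.21, MRPS14 -1.04, MRPL32 -1.34, MRPL52 -1.44, MRPS24 -0.56 and MRPS25 -1.34, and in wash over whole cell MRPL24 -3.79, MRPS18B -3.77 and MRPS18A -4.24. No composition factor reversed nucleus over cytoplasm for EPCAM (0.068) and MRPS18C (0.41), cytoplasm over whole cell (-0.18) and nucleus over whole cell (0.24) for MRPS18C, and wash over whole cell for MRPS18A (-0.11).

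MRPS18C, near 0 in these comparisons, also reversed within prefix 1 for nucleus over cytoplasm (0.011), cytoplasm over whole cell (-0.0056) and nucleus over whole cell (0.0050). It did so for cytoplasm over whole cell in a fit of only the groups compared (-0.00976), with a leave-one-out range of -0.0029 to 0.13. For nucleus over whole cell it was 0.027 with DESeq2, 0.031 with RLE factors and 0.0058 without mitochondrial and rRNA genes. MRPS18B in undepleted over depleted wash was -0.0027, and 0.0115 with DESeq2, 0.0113 with RLE factors, 0.0096 without mitochondrial and rRNA genes and 0.13 with gene-body counts, with a leave-one-out range of -0.11 to 0.14.

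Counts of members called higher moved in wash over nucleus to 38 without a composition factor and 0 with spike-in library sizes, and in cytoplasm over whole cell to 37 and 0. In wash over whole cell they moved from 4 to 32 with gene-body counts, 0 without a composition factor, 0 with spike-in sizes, 2 within prefix 1 and 7 within prefix 2, and to 3 to 7 on leaving out 1 library, the 7 without wash replicate 2. In undepleted over depleted wash they moved from 7 to 11 with DESeq2, 3 without a composition factor, 2 with spike-in sizes and 21 with the replicate block, and to 4 to 10 on leaving out 1 library. Members called in the rarer direction with gene-body counts moved from 6 to 3 higher for nucleus over cytoplasm, 7 to 3 lower for wash over nucleus, 2 to 0 lower for cytoplasm over whole cell and 6 to 1 higher for nucleus over whole cell. The joint count of lower members was 0 with gene-body counts, 2 without a composition factor and 72 with spike-in sizes. With the replicate block the other counts in the called direction stayed within 1.5 times: 65 lower for nucleus over cytoplasm, 58 lower for wash over cytoplasm, 62 higher for wash over nucleus, 60 higher for cytoplasm over whole cell, 60 lower for nucleus over whole cell and 6 higher for wash over whole cell. Over all exon counts the members' summed share was 0.368% in whole cells, 0.464% in the cytoplasm, 0.300% in the wash and 0.267% in the nucleus. With a minimum of 50 gene-body counts the median intronic share was 31.7% in whole cells, 6.42% in the cytoplasm and 70.2% in the nucleus. Low counts limit MRPL54 and MRPS24 most, and the 3 undepleted libraries limit their comparison.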
